A study of Mus musculus with 20 samples.

Results

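The genes of the opioid system were followed in the amygdala of WT and 5-HTT KO mice, at rest and shortly after a swim in cool water. These are the precursors of the opioid peptides (Penk, Pdyn, Pnoc and Pomc) and the opioid receptors (Oprm1, Oprd1, Oprk1 and Oprl1). A probe set was taken where its only gene symbol was one of these names. This gave 1 probe set for each of the 8 genes, 8 of the 28767 probe sets on the array, and 0 further probe sets that share a symbol with other genes. The members were chosen by name and not by their values, though earlier results of these data were known. All mice were male and had heterozygous parents on a C57BL/6 background, were 7 months old and singly housed, and had all been tested on the elevated plus-maze 2 weeks earlier. KO mice carry a constitutive targeted allele of Slc6a4, which encodes the serotonin transporter 5-HTT, so that transporter function is lost in all cells and throughout development. Stressed mice spent 1 min in water of 22 °C and control mice spent 1 min in the home cage, and the left and right amygdala of each mouse were dissected together. The 4 groups were control (WT con, KO con) and stressed mice (WT stress, KO stress) of both genotypes, with 5 mice in each and 1 mouse per array, so that replicates are biological. All values are log2 signals as deposited.

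Opioid peptides are cut from larger precursor proteins. Proenkephalin (Penk) yields enkephalins, which act mainly on delta and mu receptors, prodynorphin (Pdyn) yields dynorphins, which act mainly on the kappa receptor, and proopiomelanocortin (Pomc) yields beta-endorphin together with the stress hormone ACTH. Prepronociceptin (Pnoc) yields nociceptin, whose receptor Oprl1 resembles the opioid receptors in sequence but binds the classical opioids poorly. The receptors for the other peptides are Oprm1 (mu), Oprd1 (delta) and Oprk1 (kappa), and all of them couple to inhibitory G proteins, lower cyclic AMP, open potassium channels and close calcium channels. In the amygdala Penk is known for the GABAergic neurons of the central nucleus and of the intercalated cell masses, and Pdyn and Pnoc for subsets of central nucleus neurons, while Penk and Pdyn also mark the projection neurons of the neighbouring striatum.

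Upstream sequence is shown for a peptide gene and a receptor gene whose values varied together across mice (Pdyn and Oprd1) and for a peptide gene that was not past the threshold with any other (Pomc). The sequences come from RefSeq with the build GRCm38.p6. Of the 8 genes, 5 were matched to the promoter table (Pdyn, Pomc, Oprm1, Oprd1 and Oprl1). Each line gives the 250 bases before an annotated transcription start, 5′ to 3′ on the strand of the gene. Pdyn lies on the minus strand (chr2:129699939-129700188), Oprd1 on the minus strand (chr4:132144487-132144736) and Pomc on the plus strand (chr12:3954695-3954944). Capitals mark TGACAAACA in Pdyn, CACGTG in Oprd1 and TATAAA in Pomc.
Pdyn: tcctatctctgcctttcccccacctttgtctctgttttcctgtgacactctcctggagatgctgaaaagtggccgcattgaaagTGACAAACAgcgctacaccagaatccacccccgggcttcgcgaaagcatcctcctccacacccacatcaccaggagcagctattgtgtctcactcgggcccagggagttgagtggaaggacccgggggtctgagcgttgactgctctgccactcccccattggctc
Oprd1: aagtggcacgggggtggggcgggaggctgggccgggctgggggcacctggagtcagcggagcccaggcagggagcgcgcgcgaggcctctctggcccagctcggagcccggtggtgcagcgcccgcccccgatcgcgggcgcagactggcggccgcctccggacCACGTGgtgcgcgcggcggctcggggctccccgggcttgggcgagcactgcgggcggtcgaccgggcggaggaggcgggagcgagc
Pomc: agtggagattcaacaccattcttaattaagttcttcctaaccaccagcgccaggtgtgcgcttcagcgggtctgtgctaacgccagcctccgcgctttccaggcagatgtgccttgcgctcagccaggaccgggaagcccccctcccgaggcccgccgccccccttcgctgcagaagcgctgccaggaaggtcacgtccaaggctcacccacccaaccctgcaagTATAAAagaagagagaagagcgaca
The letters TGACAAACA, known as an AP-1-like element of the Pdyn promoter, began 166 bases before the printed start of Pdyn. They were found in 0.274% of 32851 promoter windows of the table. Pdyn has 2 starts in this table, and the window of the other start held 0 matches. CACGTG, an E-box, began 86 bases before the start of Oprd1 and was found in 6.02% of windows. TATAAA, the core of a TATA box, began 25 bases before the start of Pomc and was found in 12.4% of windows. It was also found on the other strand of 1 Oprl1 window. Both strands of the 250 bases before every start were searched, and the 5 motifs do not contain one another. The cyclic AMP response element TGACGTCA (1.55% of windows) and the AP-1 site TGACTCA (4.46%) were in 0 windows of the 5 genes. A match describes the letters only. The G and C content of the 250 bases was 57.2% in Pdyn, 80.0% in Oprd1 and 60.0% in Pomc.

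Slc6a4, the targeted gene, had higher values in the arrays labelled KO, at 8.16 ± 0.03 (SD, n = 5) in KO con and 8.28 ± 0.11 in KO stress against 6.62 ± 0.75 in WT con and 6.39 ± 0.10 in WT stress. Genotypes did not overlap. The position of its probes relative to the deleted part was not stated in the sources used here, so that this difference does not check the deletion itself. Array medians lay between 6.59 and 6.82. Replicate 1 of WT stress and replicate 1 of WT con were less like the rest. Their median correlations to the other arrays were 0.961 and 0.978 (0.980 to 0.990 for the others). Results of the 8 genes that rest on these arrays are given with and without them. Markers of the central amygdala were measured in all arrays, with means over the 20 arrays of 9.52 for Prkcd, 7.89 for Nts and 6.36 for Crh. Markers of striatal projection neurons (13 probe sets, among them Drd1, Drd2, Ppp1r1b and Tac1) were measured as well, and their mean level ran from 7.87 to 9.52 in WT con and 7.77 to 9.26 in WT stress, and from 8.01 to 9.27 in KO con and 8.02 to 8.94 in KO stress.

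**Figure D1:**
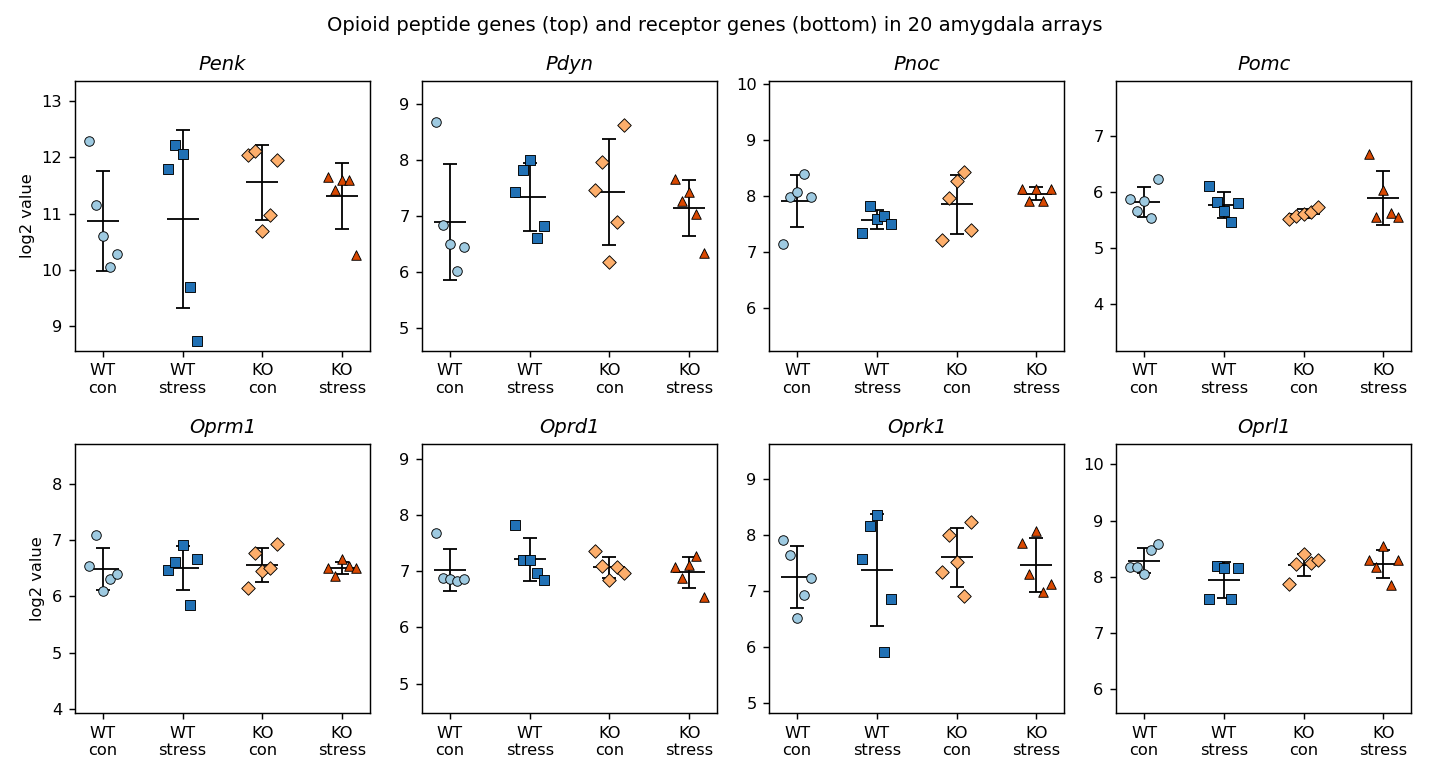
Log2 values (y axis) of the 8 opioid genes in the 4 groups (x axis, WT before KO and control before stress). Points are single arrays in the order of replicates 1 to 5, bars are the mean ± SD (n = 5), and every panel spans the same number of log2 units. The Penk values of WT stress run from 8.74 to 12.22, and the Pnoc values of KO stress all lie above those of WT stress.

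Penk (probe set 10511363, gene ID 18619, chromosome 4, 4133536 to 4138815 in GRCm38.p6) varied more between mice of one group than between groups. In WT con its values were 12.29, 11.15, 10.60, 10.06 and 10.28 in replicates 1 to 5. In WT stress they were 11.80, 12.22, 12.07, 9.70 and 8.74. The WT stress mice thus fell apart into high values in replicates 1 to 3 and low values in replicates 4 and 5, an 11.1-fold range within 1 group. In KO con the values were 12.05, 12.11, 10.69, 10.98 and 11.95, and in KO stress they were 11.65, 11.42, 11.60, 11.60 and 10.27. All groups overlapped. Group means of WT mice were 10.88 ± 0.89 (SD, n = 5) for control and 10.90 ± 1.58 for stress, and those of KO mice 11.56 ± 0.67 and 11.31 ± 0.59. The means span 0.68, less than the SD of either WT group, and no neighbours in this order differed beyond their spread. In dissected tissue fewer cells of a type and less RNA per cell cannot be told apart.

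Pdyn (probe set 10487613, gene ID 18610, chromosome 2, 129686549 to 129699938) showed a similar spread. Its WT con values were 8.67, 6.84, 6.51, 6.01 and 6.45, so that replicate 1 was the highest of all 20 arrays and the other 4 were low. Its WT stress values were 7.44, 7.82, 8.01, 6.62 and 6.83, with the low values in the same replicates 4 and 5 as for Penk. In KO con it ran from 6.18 to 8.62 and in KO stress from 6.35 to 7.66. All groups overlapped, with means of 6.90 ± 1.03 (SD, n = 5) for control and 7.34 ± 0.60 for stress in WT, and 7.43 ± 0.94 and 7.15 ± 0.50 in KO, which did not differ beyond their spread.

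Pnoc (probe set 10420853, gene ID 18155, chromosome 14, 65400673 to 65425564) was the only member whose groups did not overlap in one of the 4 pairwise comparisons. Its values were 7.35, 7.82, 7.60, 7.64 and 7.49 in WT stress and 8.12, 7.91, 8.13, 7.91 and 8.12 in KO stress. The lowest KO stress array lay above the highest WT stress array, and the KO stress mice were close together (8.04 ± 0.11, SD, n = 5, against 7.58 ± 0.18). In the control groups the values were 7.15, 7.98, 8.06, 8.39 and 7.98 for WT con and 7.22, 7.96, 8.26, 8.43 and 7.39 for KO con. The control groups overlapped each other and both stress groups, with means of 7.91 ± 0.46 and 7.85 ± 0.53.

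Pomc (probe set 10394240, gene ID 18976, chromosome 12, 3954945 to 3960643) lay near the lower end of the array's scale, where differences are compressed. It ran from 5.53 to 6.22 in WT con and 5.47 to 6.11 in WT stress, and from 5.52 to 5.73 in KO con. In KO stress 3 arrays had 5.55 to 5.62, replicate 3 had 6.04 and replicate 1 had 6.67, the highest value of all 20 arrays. The mean of 18 markers of the hypothalamus and medial amygdala was also highest in KO stress replicate 1, at 8.10, and in KO stress replicate 3 the pituitary markers Gh (9.64) and Prl (7.08) were far above the other arrays (at most 7.18 and 5.36). Tbx19, another pituitary marker, was 5.31 in KO stress replicate 3, within the range of the other arrays (4.96 to 5.68). The mean of 7 pituitary markers was 5.38 to 5.77 in the other arrays and 6.33 in this one. Their part in the Pomc values was not tested.

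Among the receptors Oprl1 and Oprk1 had the wider differences between group means. Oprl1 (probe set 10479685, gene ID 18389, chromosome 2, 181715000 to 181720985), the nociceptin receptor, had values of 8.17, 8.17, 8.05, 8.47 and 8.59 in WT con and 7.60, 8.20, 8.16, 7.60 and 8.16 in WT stress. The low values were those of replicates 1 and 4 of WT stress, and the other 3 lay within the WT con range. In KO con it ran from 7.88 to 8.41 and in KO stress from 7.86 to 8.54. Oprk1 (probe set 10344653, gene ID 18387, chromosome 1, 5588450 to 5606134), the dynorphin receptor, had values of 7.92, 7.65, 6.53, 6.93 and 7.24 in WT con and 7.57, 8.16, 8.35, 5.92 and 6.86 in WT stress. The groups overlapped, and the low WT stress arrays were again replicates 4 and 5. Its means were 7.25 ± 0.55 (SD, n = 5) for control and 7.37 ± 1.00 for stress in WT, and 7.60 ± 0.52 and 7.46 ± 0.48 in KO. For Oprl1 they were 8.29 ± 0.23 and 7.94 ± 0.32 in WT, and 8.21 ± 0.20 and 8.23 ± 0.25 in KO.

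Oprd1 (probe set 10516852, gene ID 18386, chromosome 4, 132110188 to 132144486), the delta receptor for enkephalins, was 7.69 in WT con replicate 1 and 6.82 to 6.87 in the other WT con arrays. Its WT stress values were 7.82, 7.20, 7.20, 6.97 and 6.85, and both arrays that stand apart thus had the highest value of their group. In KO con Oprd1 ran from 6.84 to 7.36 and in KO stress from 6.55 to 7.26. Oprm1 (probe set 10367546, gene ID 18390, chromosome 10, 6758593 to 7038209), the mu receptor, had group means of 6.49 ± 0.38 (SD, n = 5) for control and 6.50 ± 0.40 for stress in WT, and 6.56 ± 0.30 and 6.51 ± 0.11 in KO. These span 0.07, the least of the 8 genes, and do not differ beyond their spread. Each gene has 1 value per array, so that the splice forms known for Oprm1 cannot be told apart.

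**Figure D2:**
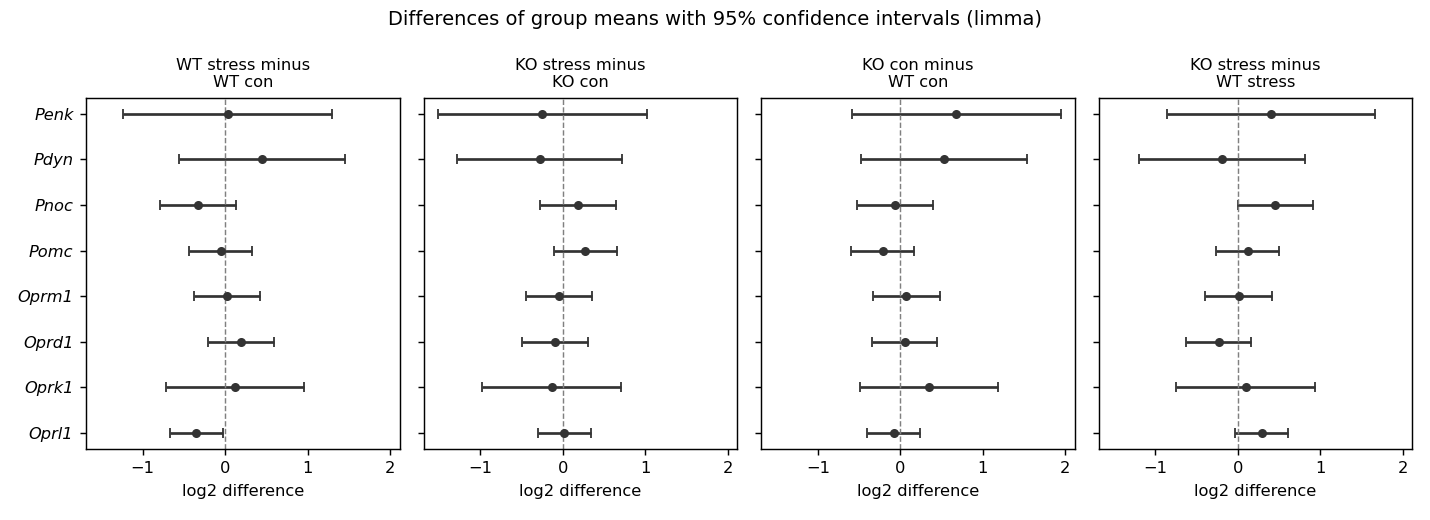
Differences of group means on the log2 scale (x axis) for the 8 genes (y axis) in the 4 comparisons of the study, with 95% confidence intervals from limma and a dashed line at 0. The interval of Oprl1 in WT stress vs. con is the only one that excludes 0, and those of Penk and Pdyn reach beyond 1 log2 unit.

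For WT stress vs. con, which asks how the amygdala of intact mice differs shortly after a brief stressor, 1 of the 8 genes had an unadjusted p under 0.05 in limma, where 3.54% of all probe sets did. This was Oprl1, lower in WT stress by a log2 difference of -0.35 (SE 0.15, 95% interval -0.67 to -0.03, unadjusted p of 0.0344, adjusted p = 1.0). Lower values at this threshold were seen for 0.556% of probe sets. The exact permutation p of Oprl1 was 0.119 (two-sided, 5 arrays against 5, smallest possible p 0.00794). The limma p was over 0.05 without WT con replicate 4 (-0.30, p of 0.0810) or 5 (-0.27, p of 0.0993), WT stress replicate 1 (-0.26, p of 0.107) or 4 (-0.26, p of 0.106), and both replicates 1 (-0.29, p of 0.0968). Whether the replicate numbers pair the WT arrays is not known. With the number as a block in the WT groups Oprl1 had a limma p of 0.0690 (SE 0.16). Oprd1, with a difference of 0.19, had one of 0.0380 (SE 0.07, without the block 0.327). Groups did not overlap for 0 of 8 genes and 0.257% of probe sets. At an adjusted p under 0.05, or with a fold over 1.5 and an unadjusted limma p under 0.05 (0.24% of probe sets), 0 of the 8 genes were called. The study used the latter criterion, without adjustment, and an unpaired test on the compared groups in place of limma. By it 0 of the 8 genes were called as well.

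Pdyn was higher in WT stress by 0.44 (SE 0.48, 95% interval -0.56 to 1.45) and Penk by 0.03 (SE 0.60, -1.24 to 1.29). These intervals hold changes of more than 2-fold in either direction for Penk. The difference of Pnoc was -0.33 (SE 0.22, exact permutation p = 0.175). WT con replicate 1, the array with the highest Pdyn and the lowest Pnoc, decided several of these values. Without it 4 genes had an unadjusted limma p under 0.05, namely Pdyn (0.89, p of 0.0452), Oprd1 (0.36, p of 0.0465), Pnoc (-0.52, p of 0.0156) and Oprl1 (-0.38, p of 0.0344), with adjusted p = 0.985 for each. Without both arrays that stand apart 1 gene had such a p, and it was Pnoc (-0.47, p of 0.0395) and not Oprl1, while Pdyn (0.86, p of 0.0726) and Oprd1 (0.20, p of 0.148) did not. The remaining members were Oprk1 (0.12, SE 0.40), Pomc (-0.06, SE 0.18) and Oprm1 (0.02, SE 0.19).

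In KO stress vs. con no member had a limma p under 0.05 (0 of 8, against 1.13% of probe sets), 0 had in addition a fold over 1.5 (0.139%) and 0 had groups that did not overlap (0.289%). The differences ran from -0.28 for Pdyn (SE 0.48) to 0.27 for Pomc (SE 0.18, exact permutation p = 0.333), and the latter rests on the 2 high arrays named above. Oprl1 differed by 0.02 (95% interval -0.30 to 0.34) and Oprm1 by -0.05 (-0.45 to 0.35). The median absolute difference of the 8 genes was 0.16, against 0.05 for all probe sets.

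In con KO vs. WT, the comparison of genotypes at rest, Penk had the widest difference between group means of any member and pairwise comparison (0.68, SE 0.60, 95% interval -0.59 to 1.94, exact permutation p = 0.214), and Pdyn was higher in KO by 0.53 (SE 0.48). Neither passed a test, and 0 of 8 genes had a limma p under 0.05, against 3.57% of probe sets. With a fold over 1.5 in addition the count was 0 (0.0487% of probe sets), and groups did not overlap for 0 (0.855%). The striatal markers had higher means in KO con for 13 of 13 probe sets, with a median difference of 0.33 and 0 with p under 0.05. With their score as a covariate the difference of Penk was 0.09 (SE 0.21) and that of Pdyn 0.10 (SE 0.24). Without WT con replicate 1 Pdyn was higher by 0.98 (limma p of 0.0295, adjusted p = 1.0) and Penk by 1.03 (p of 0.106). Oprk1 was higher by 0.35 (SE 0.40), Pomc lower in value (-0.21, SE 0.18) and the other members lay between -0.08 and 0.07.

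In stress KO vs. WT every KO mouse had more Pnoc signal than every WT mouse. Pnoc was higher in KO stress by 0.46 (SE 0.22, 95% interval -0.00 to 0.92, 5 of 5 arrays, exact permutation p = 0.00794, the smallest that 5 against 5 allows). Groups that do not overlap were seen for 1.02% of all probe sets, and for 0.358% with the higher values in KO. The limma p, which shares 1 estimate of spread over the 4 groups, was 0.0518 (adjusted p = 0.530), so that 0 of 8 genes were under 0.05, where 9.28% of probe sets were, 0 had in addition a fold over 1.5 (0.768%) and 0 passed after adjustment (0.00348%). With limma on the stress groups alone, whose spread was small, p was 6.04e-04 (adjusted p = 0.710). Oprl1 was higher in KO stress by 0.29 (SE 0.15, limma p of 0.0731, exact permutation p = 0.135), with 3 of 5 arrays above all WT stress arrays. Penk (0.40, SE 0.60), Pomc (0.12), Oprk1 (0.09) and Oprm1 (0.01) had higher and Oprd1 (-0.23) and Pdyn (-0.19) lower means in KO stress. Without both replicates 1 that stand apart the differences were -0.08 for Oprd1, 0.63 for Penk, 0.21 for Pomc and 0.14 for Oprk1. They were 0.40 for Pnoc (limma p of 0.0601) and 0.20 for Oprl1 (limma p of 0.213).

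Markers of GABAergic neurons, the cells in which Pnoc is known in this region, moved in the same comparison. Of 9 probe sets 7 had higher means in KO stress than in WT stress, 3 of them with p under 0.05, and the median difference was 0.36. Their mean level ran from 8.51 to 9.44 in WT stress and from 9.21 to 9.42 in KO stress. Other lists moved as well. Higher means in KO stress were seen for 5 of 6 astrocyte markers (2 at p under 0.05, median 0.20) and 5 of 5 of the central amygdala (0, median 0.24). The same held for 7 of 7 markers of the meninges (1, median 0.59) and 7 of 8 of the choroid plexus (0, median 0.62). It also held for 13 of 18 markers of the hypothalamus and medial amygdala (2, median 0.19) and 3 of 4 of the endothelium (1, median 0.25). Lower means were seen for 8 of 10 pallial markers (1, median -0.24). The part of these lists in the Pnoc difference was not tested. With the GABAergic score as a covariate the difference of Pnoc was 0.21 (SE 0.23, limma p of 0.366), and that of Oprl1 in WT stress vs. con was -0.30 (SE 0.17, limma p of 0.0869). In WT stress vs. con 3 GABAergic markers had lower values at p under 0.05 (Gad1, Gad2 and Slc32a1). Pallial excitatory neuron markers moved there too, with 9 of 10 higher in WT stress (2 at p under 0.05, median 0.39) and a mean level of 7.497 to 8.92 against 7.49 to 8.01 in WT con, and with the pallial score as a covariate the difference of Oprl1 was -0.20 (limma p of 0.184).

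**Figure D3:**
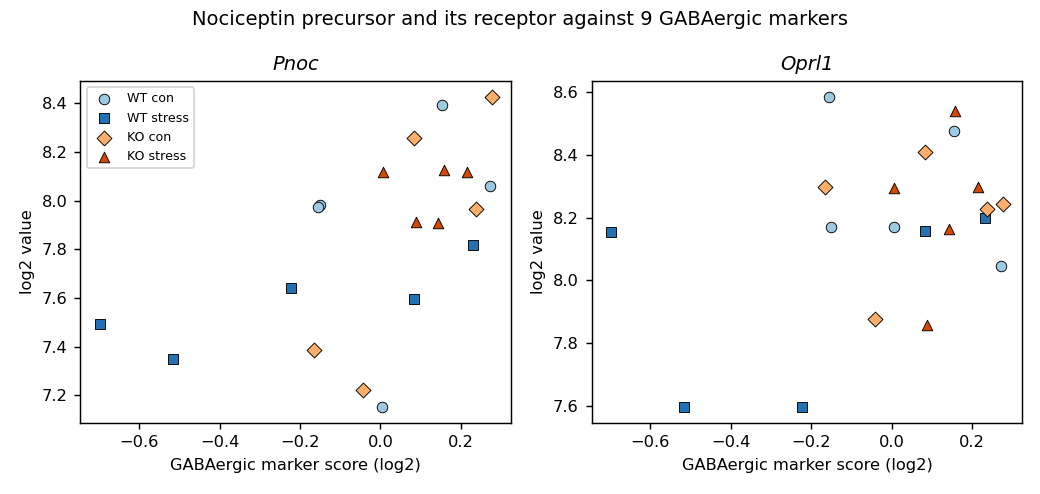
Log2 values of Pnoc (left) and Oprl1 (right) (y axis) against the score of 9 GABAergic markers, the mean of the markers after each was centred on its mean over 20 arrays (x axis, log2 units), with 1 point per array and a symbol per group. The WT stress arrays reach the lowest scores, down to -0.70, and the KO stress arrays sit between 0.01 and 0.21 with Pnoc at 7.91 or more.

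No member had a limma p under 0.05 for the interaction of genotype and stress (0 of 8, against 2.52% of probe sets), for stress averaged over genotypes (1.67%) or for genotype averaged over conditions (12%). The interaction was 0.52 for Pnoc (SE 0.31, limma p of 0.112) and 0.37 for Oprl1 (SE 0.22, p of 0.104), the change with stress being more positive in KO, and -0.72 for Pdyn (SE 0.68, p of 0.298). Without WT con replicate 1 the interaction of Pnoc was 0.71 (p of 0.0171, adjusted p = 1.0) and that of Pdyn -1.17 (p of 0.0538). Without both arrays that stand apart the interaction was 0.65 for Pnoc (limma p of 0.0331) and 0.31 for Oprl1 (limma p of 0.179). Averaged over conditions Penk was 0.54 higher in KO (SE 0.43, 95% interval -0.35 to 1.43) and Pnoc 0.20 higher (SE 0.16, -0.13 to 0.52). Without WT con replicate 1 that of Pnoc was 0.10, and without both arrays that stand apart it was 0.07 and that of Penk 0.83 (p of 0.0705). Averaged over genotypes Oprl1 differed by -0.16 with stress (SE 0.11, -0.39 to 0.06). The median absolute difference of the 8 genes was 0.15 in WT stress vs. con, 0.14 in con KO vs. WT and 0.21 in stress KO vs. WT, against 0.07, 0.08 and 0.10 for all probe sets. Over the 7 contrasts 1 of 56 tests had an unadjusted p under 0.05 and 0 had an adjusted one (smallest 0.530).

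The variation between mice within groups was wide and shared by part of the family. The residual SD of limma's fit was 1.01 for Penk, 0.80 for Pdyn and 0.67 for Oprk1, higher than for 99.9%, 99.5% and 99.0% of all probe sets. It was 0.37 for Pnoc, 0.32 for Oprm1, 0.31 for Oprd1, 0.30 for Pomc and 0.25 for Oprl1. After group means were subtracted, 7 of 28 pairs of members correlated over the 20 arrays at an adjusted permutation p under 0.05 (100000 permutations within groups), and 5 after quantile normalization. Penk and Pdyn, the precursors of enkephalins and dynorphins, varied together (r = 0.79, p = 4e-05, adjusted p = 0.00112; rho = 0.87, p = 1e-05, the smallest these permutations can give). Within single groups their r was 0.97, 0.90, 0.86 and 0.91, and it was 0.91 without the 2 arrays farthest from the Penk median, WT stress replicates 4 and 5.

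The delta receptor Oprd1 varied with its ligand precursor Penk (r = 0.73, p = 7.7e-04, adjusted p = 0.00719; rho = 0.81, p = 4.7e-04; 0.69 without WT stress replicates 4 and 5). The kappa receptor Oprk1 varied with its ligand precursor Pdyn (r = 0.72, p = 2.5e-04, adjusted p = 0.0035; rho = 0.79, p = 3.1e-04; 0.71 without WT con 1 and KO con 5). Other pairs were Oprk1 and Penk (r = 0.74, p = 0.00453, adjusted p = 0.0254; rho = 0.78, p = 0.00173; 0.62 without WT stress 4 and 5) and Oprd1 and Pdyn (r = 0.62, p = 0.0116, adjusted p = 0.0463; rho = 0.66, p = 0.00368; 0.54 without WT con 1 and KO con 5). Mu and kappa receptors also varied together (r = 0.75, p = 0.00109, adjusted p = 0.00763; rho = 0.67, p = 0.00462; 0.64 without WT con 2 and WT stress 4). Pnoc and Oprd1 ran opposite to each other (r = -0.56, p = 0.0114, adjusted p = 0.0463; rho = -0.37, p = 0.1), and this relation rests on WT con 1 and KO con 1, without which r was -0.19. For Pnoc and its receptor Oprl1 r was 0.42 (p = 0.0462, adjusted p = 0.129; rho = 0.36, p = 0.0994).

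**Figure D4:**
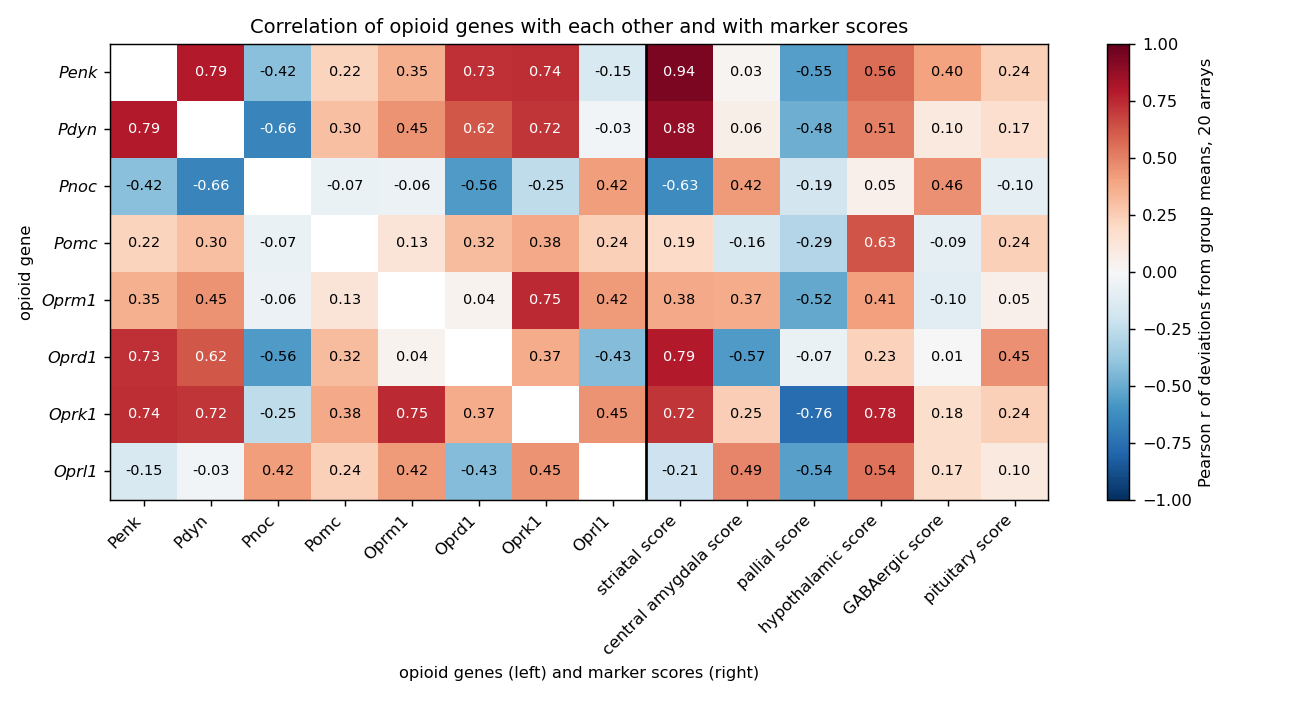
Pearson r of deviations from the group means over 20 arrays (colour, and number in each cell) for the 8 opioid genes (rows) with each other (left of the line) and with 6 marker scores (right of the line). Penk, Pdyn, Oprd1 and Oprk1 correlate with the striatal score at 0.94, 0.88, 0.79 and 0.72, and Oprk1 runs opposite to the pallial score at -0.76.

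The same genes followed the markers of striatal projection neurons. The score of a list is the mean of its markers after each was centred on its mean over the 20 arrays, and 6 scores were set against the 8 genes, a set of 48 relations chosen after the data were seen. The striatal score correlated with Penk (r = 0.94, p = 3e-05, adjusted p = 7.2e-04; rho = 0.97, p = 3e-05), within each group at 0.95 or more, and r was 0.94 without WT con 1 and WT stress 4. For Pdyn r was 0.88 (p = 1e-04, adjusted p = 0.0016; rho = 0.83, p = 1.8e-04; 0.81 without those arrays) and for Oprd1 0.79 (p = 3.5e-04, adjusted p = 0.0042; rho = 0.78, p = 4.3e-04; 0.68). For Oprk1 it was 0.72 (p = 0.00345, adjusted p = 0.0237; rho = 0.71, p = 0.00637; 0.59). In the limma fit the score took up 88.3% of the residual variance of Penk, 75.3% of Pdyn, 60.0% of Oprd1, 47.9% of Oprk1, 35.6% of Pnoc and 8.87% of Oprm1, and none of Pomc or Oprl1. Pnoc ran opposite to the score (r = -0.63, p = 0.00984, adjusted p = 0.059; rho = -0.45, p = 0.0593; -0.50 without WT con 1 and WT stress 4). With it the residual SD of Penk was 0.35 in place of 1.01. The low Penk arrays of WT stress, replicates 4 and 5, had striatal scores of -0.82 and -0.79, and the 3 high ones 0.56 to 0.67.

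**Figure D5:**
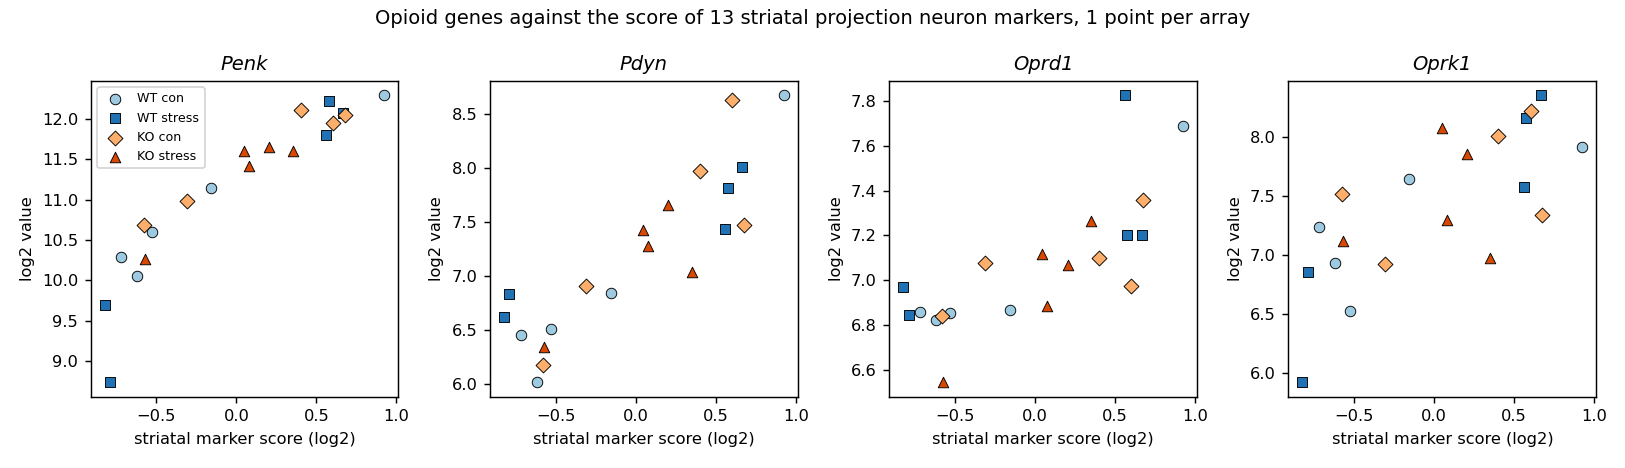
Log2 values (y axis) of Penk, Pdyn, Oprd1 and Oprk1 against the score of 13 striatal projection neuron markers (x axis, log2 units), with 1 point per array and a symbol per group. Penk runs from 8.74 in WT stress replicate 5 (score -0.79) to 12.29 in WT con replicate 1 (score 0.93), and arrays of all groups lie along the same course.

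Oprk1 followed other scores as well. It correlated with the score of 18 markers of the hypothalamus and medial amygdala (r = 0.78, p = 3e-05, adjusted p = 7.2e-04; rho = 0.83, p = 4e-05; 0.86 without KO stress 1 and 3) and opposite to the score of 10 pallial excitatory neuron markers (r = -0.76, p = 0.00154, adjusted p = 0.0148; rho = -0.76, p = 0.00145; -0.61 without WT stress 4 and 5). Pdyn correlated with the hypothalamic score as well (r = 0.51, p = 0.00195, adjusted p = 0.0156; rho = 0.64, p = 0.00127; 0.53 without KO stress 1 and 3). Penk correlated with the hypothalamic score by rank (rho = 0.62, p = 0.00522, adjusted p = 0.0313) but not past the threshold by Pearson's r (0.56, p = 0.0235, adjusted p = 0.0991; 0.70 without KO stress 1 and 3). Likewise Pnoc correlated with the GABAergic score by rank (rho = 0.65, p = 0.00457, adjusted p = 0.0313) but not past the threshold by Pearson's r (0.46, p = 0.0262, adjusted p = 0.0991; 0.49 without WT stress 1 and 5). For Pomc and the hypothalamic score r was 0.63 (p = 0.0306, adjusted p = 0.0991, with rho = 0.60, p = 0.0347) and 0.19 without KO stress 1 and 3, on which it rests. For Pomc and the pituitary score r was 0.24 (p = 0.590, adjusted p = 0.765, with rho = 0.51, p = 0.0468, adjusted p = 0.160). It was 0.04 without WT stress 1 and KO stress 3. With the central amygdala score no gene was past the threshold, and r was 0.03 for Penk, 0.06 for Pdyn, 0.42 for Pnoc and -0.57 for Oprd1.

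The probe sets most like each member were sought among those with 1 symbol, by r of deviations from group means over the 20 arrays, as a description. For Penk they were Rgs9 (0.96), Rxrg (0.95) and Gprin3 (0.95). For Pdyn they were Dclk3 (0.97) and the 2 probe sets of Adamts3 (0.93 and 0.93). For Pnoc they were Dlx1 (0.92), which is one of the GABAergic markers above, Gfra2 (0.91) and Gpc3 (0.89). Pomc was most like Gadl1 (0.87), Oprm1 most like Ldhd (0.89), Oprd1 most like Glp2r (0.94), Oprk1 most like Kcna3 (0.95) and Oprl1 most like Tmem130 (0.92).

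The genes that make, cut and transmit opioid signals were counted next. Of 8 peptide processing genes, such as the convertases Pcsk1 and Pcsk2, 0 had p under 0.05 in the 4 pairwise comparisons. In stress KO vs. WT 8 of 8 had higher means in KO, with a median difference of 0.20 against -0.03 for all probe sets. Their mean level was 9.09 in WT stress replicate 1, which stands apart, against a WT stress median of 9.64 and 9.65 to 9.88 in KO stress. Differences without this array are not given for the list. With genotype averaged over conditions Rnpep was higher in KO (0.19, limma p of 0.0491, adjusted p = 0.412), where 12% of all probe sets were under 0.05. Of 8 probe sets for enzymes of peptide breakdown 2 were higher in KO stress vs. con at p under 0.05, where 1.13% of all probe sets were under 0.05: Anpep, an aminopeptidase (0.65, SE 0.29, limma p of 0.0419), and Ace, the angiotensin-converting enzyme that also cuts enkephalins (0.86, SE 0.39, p of 0.0434), both with adjusted p = 1.0. Ace ran from 7.37 to 9.02 in KO stress and from 7.02 to 7.36 in KO con. In WT mice Ace ran from 6.81 to 9.72 under stress and from 7.06 to 7.61 at rest, and Anpep had means of 6.34 and 6.43. With stress averaged over genotypes Ace was also higher (0.66, SE 0.28, limma p of 0.0301), where 1.67% of all probe sets were under 0.05. Markers of the choroid plexus moved with both genes in KO mice. Of these 8 of 8 were higher in KO stress (5 at p under 0.05), with a mean level of 7.17 to 9.76 against 6.66 to 7.39. Their level ran from 6.59 to 10.51 in WT stress and from 6.88 to 7.84 in WT con. In KO mice 7 of 7 markers of the meninges were higher as well (3 at p under 0.05). The part of these markers in the Ace and Anpep values was not tested.

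Of 14 probe sets for G protein subunits, channels and adenylyl cyclases behind the receptors, 3 were higher and 1 lower in stress KO vs. WT at p under 0.05, where 9.28% of all probe sets were under 0.05. The inhibitory alpha subunits Gnai1 (0.44, SE 0.18, limma p of 0.0254), Gnai2 (0.36, SE 0.12, p of 0.00904) and Gnaz (0.36, SE 0.16, p of 0.0406) were higher in KO stress. Their groups overlapped, at 9.91 to 10.77 in WT stress and 10.76 to 11.24 in KO stress for Gnai1. The ranges were 10.05 to 10.85 and 10.82 to 11.18 for Gnai2, and 7.52 to 8.58 and 8.40 to 8.81 for Gnaz. Differences without single arrays are not given for these genes. The calcium channel gene Cacna1a was lower (-0.26, SE 0.09, p of 0.00712), and it was higher in WT stress vs. con (0.19, SE 0.09, p of 0.0399). The adjusted p was 0.530 for the former and 1.0 for the latter. In the same genotype comparison Rgs20 was higher (0.35, SE 0.16, p of 0.0466), as 1 of 11 genes for receptor desensitization, and the protease gene Ece1 (0.27, SE 0.12, p of 0.0345). With genotype averaged over conditions 3 of the 11 desensitization genes were higher in KO at p under 0.05, where 12% of all probe sets were under 0.05. These were Rgs20 (0.32) and Rgs19 (0.20), which speed the shut-off of G proteins, and Arrb1 (0.13), an arrestin that uncouples receptors, each with adjusted p = 0.412. Of the 14 probe sets above 2 were higher in this contrast as well, Gnaz (0.35, limma p of 0.00798) and Gnai2 (0.19, p of 0.0440). Ece1 was also higher (0.20, limma p of 0.0291), and the adjusted p was again 0.412 for each. At rest Gnaz had means of 8.62 in KO con and 8.29 in WT con.

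Of 7 genes for transcription factors known at Penk and Pdyn, 1 had p under 0.05 in any of the 4 pairwise comparisons. This was in con KO vs. WT, where 3.57% of all probe sets were under 0.05 (12% for genotype averaged over conditions), and the gene was Kcnip3, whose product DREAM is known as a calcium-sensing repressor of Pdyn. It was higher in con KO vs. WT (0.45, SE 0.14, 95% interval 0.16 to 0.74, limma p of 0.0039, adjusted p = 0.929) and for genotype averaged over conditions (0.33, SE 0.10, p of 0.00274, adjusted p = 0.412). Its values were 8.43, 8.92, 8.23, 8.21 and 8.21 in WT con and 8.98, 8.71, 8.901, 9.003 and 8.655 in KO con. All KO con arrays lay above 4 of the 5 WT con arrays, and WT con replicate 2 overlapped them. The means in the stress groups were 8.52 ± 0.13 (SD, n = 5) in WT and 8.74 ± 0.26 in KO.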

How the data were processed

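Total RNA of the amygdala of 20 mice, 5 per genotype and condition, had been hybridized to whole-transcript gene arrays with 1 mouse per array. The authors used ArrayAssist (ExonRMA) for summarization and normalization, applied a variance stabilization and deposited log2 values for 28767 probe sets, which were used without further scaling. The logarithm's base was taken from the range of the values (4.09 to 14.24). Arrays were grouped by their labels. Symbols came from the probe table of the platform (21776 probe sets with 1 symbol, 1618 with several, 5373 with none) and gene positions from RefSeq with GRCm38.p6, and 21686 probe sets matched by gene identifier. The number of arrays limits the precision.

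The 4 group means were fitted to all probe sets with limma 3.58.1 in R 4.3.3 (lmFit and eBayes, 16 residual and 2.10 prior degrees of freedom), with Benjamini-Hochberg adjustment over every probe set. Single differences were also tested by exact two-sided permutation of 5 arrays against 5 (scipy 1.17.1). Correlations were taken on deviations from group means, with 100000 permutations within groups and adjustment over 28 pairs of genes or 48 relations with scores. The scripts were tested on simulated data. The members, gene lists and alternatives were chosen with earlier results of these data known. Genes named were the members, Slc6a4, and up to 4 genes of each pathway list with the smallest p under 0.05 in any contrast. The 3 probe sets most like each member were sought too, and for 5 members the text gives only the first. Marker lists used were striatal, central amygdala, pallial, hypothalamic, GABAergic, pituitary, choroid plexus, meninges, astrocytes and endothelium. Groups share replicate numbers, whose meaning the sources used here do not state. Correlations of same-numbered arrays were 0.162 to 0.420 for WT con with WT stress, each over 0.1. In every other pair of groups the lowest was under 0.1, though single ones reached 0.512 (WT stress with KO stress, replicate 5). The original fit and the permutation tests of differences did not pair arrays. A block by number was used only as an alternative, in the WT groups alone and over the 4 groups. Alternatives changed the test, the arrays in the fit, the scaling, the filter (mean log2 value of 5 or more), the variance model, array weights, the block and marker scores as covariates, and left out each array in turn. Figures were drawn with matplotlib 3.10.9.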

Additional observations from a re-analysis of the deposited data

Results flagged for a closer look

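Of 32 sets of 5 arrays (8 genes in 4 groups), 2 held an array far from the others, with a gap to its nearest neighbour over 0.71 of the range of the group. Chance alone gives such an array in about 1 of 20 groups, or 1.6 here. Oprd1 in WT con replicate 1, at 7.69, lay above the other WT con arrays (6.82 to 6.87) with a gap of 0.944 of the range. The same array had the highest Penk and Pdyn values and the highest striatal score (0.93). Penk in KO stress replicate 5, at 10.27, lay below the other KO stress arrays (11.42 to 11.65) with a gap of 0.835 of the range, and this array had the lowest striatal score of its group (-0.57).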

How the results depend on the processing

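Of the differences of single members, 1762 values under the alternatives kept their side of the threshold (unadjusted p under 0.05), 34 crossed to under 0.05, 12 crossed to over it, and 0 differences called in the original fit changed sign. The smallest adjusted p under any of 34 alternatives was 0.253. The number of members with p under 0.05 in WT stress vs. con, 1 in the original fit, was 0 with limma on those groups alone, the methods' t-test (not past 0.05 for any member before or after adjustment), array weights, and the striatal or GABAergic score as a covariate. The GABAergic covariate and the fits without both arrays that stand apart were chosen after the data were seen. With the pallial score the count was 1, but for Oprk1 (0.68, p of 0.0324) in place of Oprl1. In KO con vs. WT con it went from 0 to 1 (Pdyn) with array weights and without both arrays that stand apart. In KO stress vs. WT stress it went from 0 to 1 (Pnoc) with limma on those groups alone, the methods' t-test (p of 0.00123, adjusted p = 0.739), quantile normalization, centring on medians, the filter, the trend and robust settings, and the striatal covariate. For the interaction it went from 0 to 1 with quantile normalization (Oprl1, 0.42, p of 0.0495) and without both arrays that stand apart (Pnoc, 0.65, p of 0.0331), and for genotype averaged over conditions from 0 to 1 with the striatal covariate (Pnoc, 0.27, p of 0.0497). The cause was not tested.

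Leaving out each array in turn gave 0 to 4 members in WT stress vs. con, 0 to 1 in KO con vs. WT con, 0 to 2 in KO stress vs. WT stress, 0 to 1 for the interaction, and 0 throughout for KO stress vs. con and for the 2 averages. In KO stress vs. WT stress the limma p of Pnoc fell under 0.05 without WT con 1 (p of 0.0237), WT con 4 (p of 0.0443), WT stress 2 (p of 0.0423), KO con 1 (p of 0.0342), 3 (p of 0.0484), 4 (p of 0.0380) or 5 (p of 0.0451), and that of Oprl1 without WT stress 2 (p of 0.0402), 3 (p of 0.0480), 5 (p of 0.0484) or KO stress 4 (p of 0.0220). The interaction also passed without KO con 4 (Pnoc, 0.66, p of 0.0390) or KO stress 4 (Oprl1, 0.46, p of 0.0410).

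A block by replicate number over the 4 groups gave a count of 1 in KO stress vs. WT stress (Pnoc, 0.46, SE 0.18, p of 0.0239), and other counts stayed as they were. Blocked in the WT groups alone, the count in WT stress vs. con was 1, for Oprd1 in place of Oprl1, as given above. Quantile normalization left 5 of 28 correlated pairs in place of 7.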
